A study of Mus musculus with 24 samples.

Results

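The genes described here encode proteins of the centromere, the kinetochore and the spindle checkpoint. All array probes whose gene name follows the Cenp pattern (Cenp, a letter and an optional digit) or is one of 19 listed names were taken, and the probe with the highest mean signal over the 24 arrays stood for its gene. This gave 35 genes on 52 probes, of 24034 named genes on the array: 18 by the Cenp pattern and 17 of the 19 listed. The other two, Ska2 and Ska3, are carried by the array under older names and are given separately.

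The cells were primary alveolar type II cells of mice, the surfactant-producing epithelial cells of the lung, grown at an air-liquid interface for 3 days to a monolayer. The study set hydrogen sulfide donors, oxygen levels and times against each other. Total RNA was labelled with Cy3 and hybridised to 1-colour Agilent mouse arrays, 4 per group. In the first experiment (16 arrays) the cells received 100 µM NaHS, a fast H2S donor, for 24 h or 6 h, or vehicle (DMEM medium) for 24 h or 6 h. In the second (8 arrays) all cells received 100 µM GYY4137, a slow H2S donor, for 24 h, in 85% O2 or in 21% O2. Arrays without a donor were not analysed here for the second experiment, so its oxygen comparison is one between donor-treated cultures. Strain, age and sex of the mice were not used here, and the labels do not say whether replicates are separate cultures or animals, so p-values measure the spread between these samples, which may be technical. Type II cells are largely quiescent in the lung, and in culture they are known to spread and lose type II features. Of 8 type II markers, 7 were measured above background in the NaHS experiment and Slc34a2, a phosphate transporter, was above background on no array of it. Above background on every array of it were 6 of 8 type II, 6 of 6 type I, 7 of 8 fibroblast, 6 of 6 smooth muscle and 6 of 8 macrophage markers. Of the lymphocyte, neutrophil, endothelial, club, ciliated and basal markers 2 or 3 per list were. Which cells carried the members' RNA was not tested.

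The kinetochore is the protein plate that joins each chromosome to spindle microtubules. Nucleosomes holding the histone variant CENP-A mark the centromere, a constitutive inner layer of CENP proteins sits on them throughout the cycle, and the outer layer (the MIS12, NDC80 and SKA complexes) is built in mitosis and grips microtubules. Checkpoint proteins on kinetochores that are not yet attached hold back the anaphase-promoting complex, and the chromosomal passenger complex corrects wrong attachments. Many of these genes are transcribed mainly in G2 and mitosis, under the DREAM and MuvB-MYBL2-FOXM1 complexes, which bind cell cycle homology elements such as TTTGAA, often near CCAAT boxes.

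Levels below are log2 processed signals minus the 75th percentile of the same array, so a value of 0 is the 75th percentile, and levels of different probes are not compared. The share of probes well above background was lowest on slide 1 (54.78% to 57.23%) and ran from 67.68% to 77.54% over the other slides. The first pair of slides each held 2 arrays of every group of the NaHS experiment. With group in a limma fit, 16744 of 33235 genes and unnamed probes differed between these slides at an adjusted p under 0.05. Of the 35 members 9 were lower on slide 2 and 0 higher (median log2 difference -0.11, against 0.09 for all genes). All 4 arrays in 85% O2 were on slide 4 and all 4 in 21% O2 on slide 3, so slide and oxygen cannot be told apart. All 35 members passed the filter of 4 arrays above background in both experiments. Cenpf alone was dim: it was above background on 0 of 4 arrays in 85% O2 and 4 of 4 in 21% O2, and on 3, 4, 3 and 1 of 4 in NaHS at 24 h, vehicle at 24 h, NaHS at 6 h and vehicle at 6 h.

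**Figure D1:**
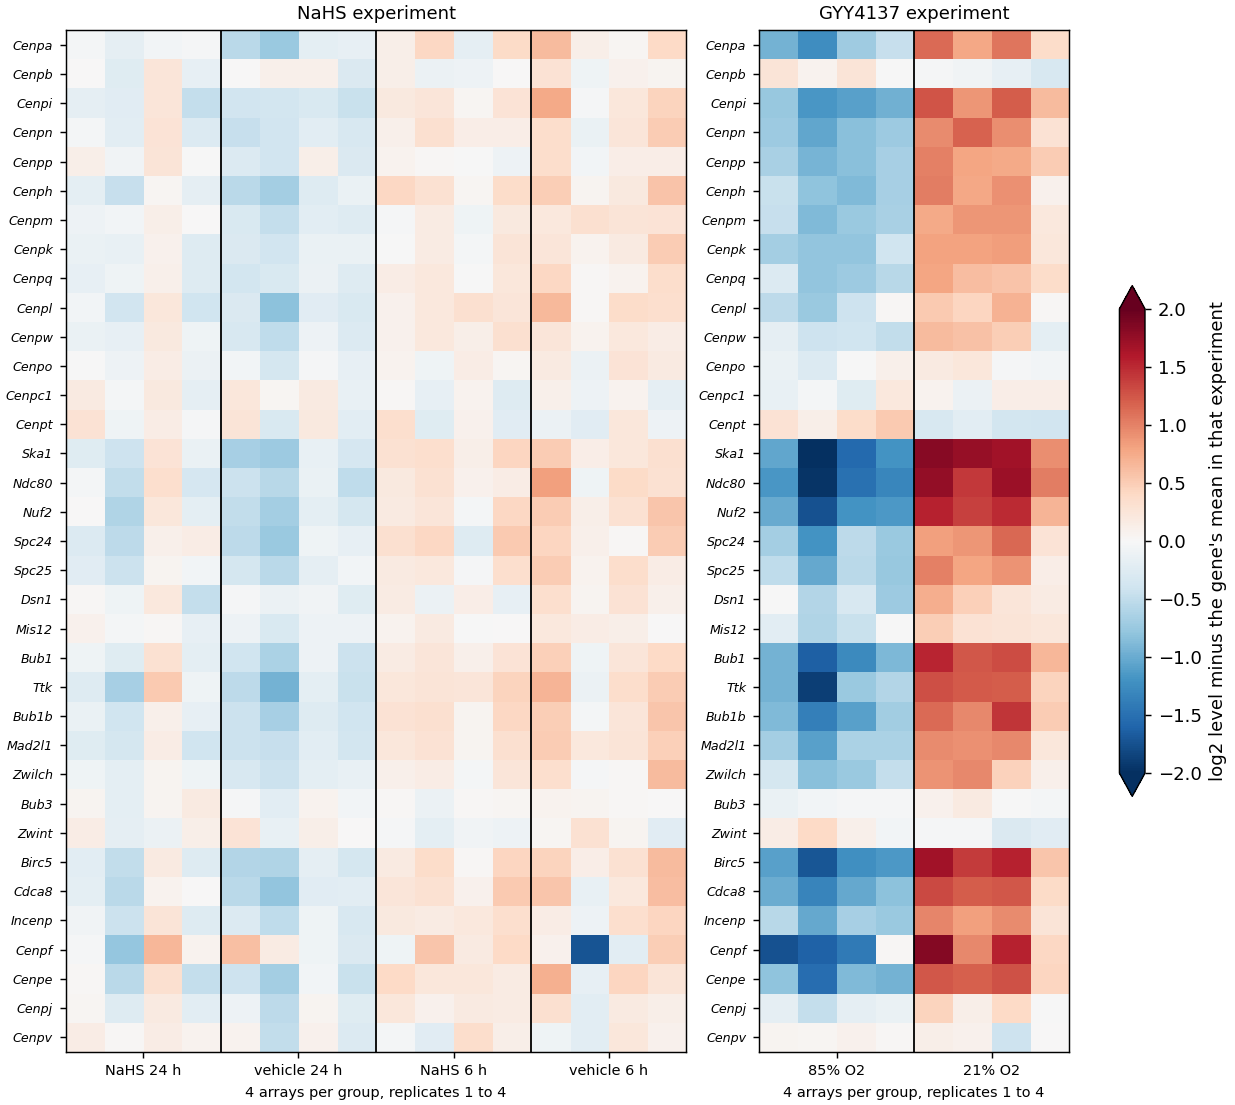
Level of each of the 35 genes (rows, by role) on each of the 24 arrays (columns, 4 per group), as log2 level minus that gene's mean in the same experiment; red is above the mean and blue below it. In the GYY4137 experiment most rows are blue in 85% O2 and red in 21% O2, while Cenpb, Cenpt and Zwint are not; in the NaHS experiment the contrast runs between 24 h and 6 h and is weaker.

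In 85% O2 the kinetochore genes were far lower than in 21% O2. Of the 35 members, 27 fell and 1, Cenpt, rose at an adjusted p under 0.05 (limma with Benjamini-Hochberg adjustment over 34623 genes and unnamed probes, of which 5.57% were called lower and 10.2% higher, 15.8% in all). The median difference of the members was -1.41 on the log2 scale, and that of all genes tested was 0.07. One of the 27, Cenpf, was not above background in 85% O2 and passed the filter only through 21% O2, so any call of it had to be lower, and the other 34 members gave 26 lower. Of these 26, 22 fell at least 2-fold, against 2.19% of all genes, and 9 at least 4-fold, against 0.338%. On 25 of the 34 every array in 85% O2 lay below every array in 21% O2, against 8.36% of all genes, and on 2 members every array in 85% O2 lay above, against 14.7%. These are bulk RNA levels, in which fewer dividing cells and less RNA per cell cannot be told apart. The split of all calls moved with the scaling: 35.2% of calls were lower in 85% O2 here, 48.7% with quantile normalization and 63.1% with median centring, which shifted the median of all genes to -0.08. The members' split did not follow it, with 26 to 28 lower, Cenpf counted where called, and 1 or 2 higher in the 9 settings computed for this comparison without leaving out an array.

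Of the genes of centromeric chromatin, Cenpa, the histone H3 variant itself, had levels of 1.19, 0.90, 1.43 and 1.67 in 85% O2, against 3.27, 2.92, 3.21 and 2.50 in 21% O2. The groups did not overlap, and Cenpa was 3.19-fold lower (log2 difference -1.68, 95% interval -2.19 to -1.16, adjusted p = 0.00437). Cenpb, which encodes the protein that binds a short box in satellite repeats, had levels of 3.38, 3.20, 3.39 and 3.12 in 85% O2 and 3.099, 3.057, 2.970 and 2.807 in 21% O2. Its groups did not overlap either, yet the difference of 0.29 (interval 0.01 to 0.57) did not pass (adjusted p = 0.132). Its 3 probes disagreed: the brightest, used here, carries no position in the array annotation, the probe at chr2:131000948-131001007 (mm9) fell by 1.25 (adjusted p = 0.00961 over 41604 probes), and the one at chr2:131004187-131004246 had -0.31 without passing.

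The inner kinetochore divided. Of 12 members 9 fell, 1 rose and 2 did not pass. Cenpi, Cenph and Cenpk encode subunits of one subcomplex with Cenpm, and all 4 fell. Cenpi had levels of -1.63, -2.03, -1.95 and -1.83 in 85% O2 and 0.40, 0.02, 0.35 and -0.24 in 21% O2, with no overlap and a log2 difference of -1.99 (SE 0.17, adjusted p = 0.00146). Cenph, Cenpm and Cenpk had differences of -1.41, -1.36 and -1.33. Cenpn, which encodes the protein that reads the CENP-A nucleosome, had -1.67, and its partner Cenpl had -0.83 with overlapping groups (adjusted p = 0.031). With replicate numbers as a block Cenpl was not called (adjusted p = 0.0677). Cenpp and Cenpq, of the subcomplex that also holds CENP-O, had -1.53 and -1.17. Cenpo itself had levels of 0.11, -0.02, 0.23 and 0.34 in 85% O2 and 0.42, 0.47, 0.23 and 0.19 in 21% O2, and its difference of -0.16 (interval -0.45 to 0.13) did not pass. Cenpc1, encoding the scaffold that joins CENP-A chromatin to the outer layer, had -0.11 (interval -0.41 to 0.20, adjusted p = 0.604).

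Cenpt and Cenpw, whose histone-fold products form one dimer, went opposite ways. Cenpt had levels of 1.84, 1.68, 1.93 and 2.08 in 85% O2 against 1.23, 1.34, 1.18 and 1.17 in 21% O2. It was 1.57-fold higher in 85% O2, with no overlap (log2 difference 0.65, interval 0.37 to 0.93, adjusted p = 0.0127). Cenpw had 1.93, 1.69, 1.71 and 1.62 in 85% O2 against 2.75, 2.70, 2.60 and 1.91 in 21% O2, and it was 1.68-fold lower with groups that overlapped through replicate 1 in 85% O2 and replicate 4 in 21% O2 (log2 difference -0.75, adjusted p = 0.0376).

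All 7 members of the outer kinetochore fell, and the largest differences of the 35 lay here. Ska1, which encodes a subunit of the SKA complex that tracks shortening microtubules, had levels of -1.85, -3.15, -2.36 and -2.004 in 85% O2 against 1.01, 0.93, 0.87 and 0.12 in 21% O2. It was 8.43-fold lower (log2 difference -3.08, interval -3.80 to -2.36, adjusted p = 0.00204). Ndc80, encoding the microtubule-binding subunit that names its complex, had -2.45, -3.25, -2.78 and -2.59 in 85% O2 against 0.47, 0.12, 0.42 and -0.27 in 21% O2. It was 7.74-fold lower (log2 difference -2.95, interval -3.47 to -2.44, adjusted p = 0.00146). Nuf2, its partner, had -1.88, -2.62, -2.07 and -2.02 in 85% O2 against 0.66, 0.49, 0.62 and -0.19 in 21% O2, a 5.83-fold lower level (adjusted p = 0.00149). None of these 3 genes had overlapping groups. Within the same complex, Spc24 and Spc25, whose products anchor it to the inner side, had smaller differences of -1.57 and -1.41. Dsn1 and Mis12, of the MIS12 complex that links the layers, had the smallest of the group, -0.81 (adjusted p = 0.0292) and -0.63 (adjusted p = 0.0291).

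Ska2 and Ska3, named Fam33a and F630043A04Rik on the array, showed the same direction as Ska1. Ska2 had levels of -3.67, -4.14, -3.23 and -3.14 in 85% O2 against -2.22, -2.44, -2.29 and -2.40 in 21% O2 (log2 difference -1.21, adjusted p = 0.0119). Ska3 had -2.71, -3.03, -2.48 and -1.89 in 85% O2 against -0.67, -0.87, -0.72 and -1.37 in 21% O2 (log2 difference -1.62, adjusted p = 0.00804).

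**Figure D2:**
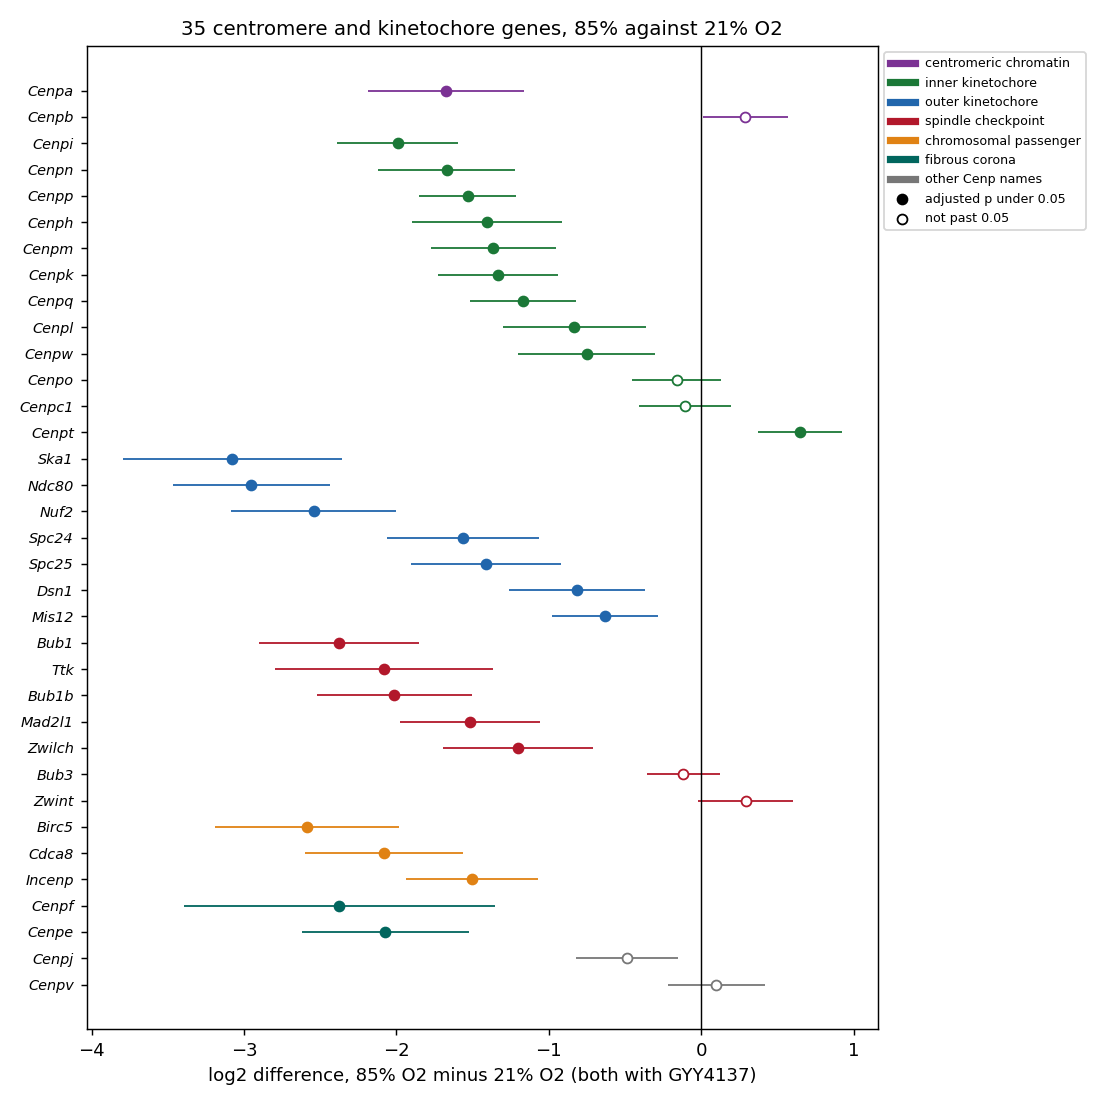
Log2 difference (horizontal axis, 85% O2 minus 21% O2, both with GYY4137, n = 4 each) of each of the 35 genes with its 95% interval, coloured by role; filled points passed an adjusted p of 0.05 in limma. The outer kinetochore and chromosomal passenger genes lie entirely left of 0, Cenpt is the only filled point to the right, and the Cenpf point is the fitted value of a probe not above background in 85% O2.

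Of 7 genes counted with the spindle checkpoint, 5 fell. Bub1, which encodes the kinase that recruits other checkpoint proteins, had levels of -1.31, -1.99, -1.64 and -1.25 in 85% O2 against 1.16, 0.89, 0.95 and 0.31 in 21% O2, and was 5.19-fold lower with no overlap (log2 difference -2.38, SE 0.23, adjusted p = 0.00161). Ttk, the gene of the MPS1 kinase that starts checkpoint signalling, had -2.08 (adjusted p = 0.00641), and Bub1b, which encodes BUBR1 of the mitotic checkpoint complex, had -2.02 (adjusted p = 0.0025). Mad2l1, encoding the MAD2 protein that binds CDC20, had -1.52, and its 3 probes all fell, by 1.52, 0.70 and 2.74. Zwilch, of the RZZ complex that brings dynein to kinetochores, had -1.20.

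The other two checkpoint members did not pass. Bub3, which encodes the partner of both BUB1 and BUBR1, had levels of 4.13, 4.20, 4.24 and 4.24 in 85% O2 and 4.35, 4.45, 4.26 and 4.23 in 21% O2. The groups overlapped, and the difference of -0.12 had an interval of -0.35 to 0.12 (adjusted p = 0.457). Zwint, encoding a protein that docks the RZZ complex, had 5.54, 5.80, 5.50 and 5.35 in 85% O2 and 5.38, 5.37, 5.11 and 5.17 in 21% O2, also overlapping (difference 0.29, interval -0.02 to 0.60, adjusted p = 0.167). Its second probe, at chr10:72131730-72131789 (mm9), had 0.63 and was called higher (adjusted p = 0.0266 over 41604 probes), so neither Zwint probe was lower in 85% O2.

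The 3 chromosomal passenger genes fell. Birc5, encoding survivin, had levels of 2.59, 1.96, 2.45 and 2.53 in 85% O2 against 5.36, 5.07, 5.22 and 4.23 in 21% O2, with no overlap, and was 6.01-fold lower (log2 difference -2.59, interval -3.19 to -1.99, adjusted p = 0.002). Its other 2 probes had -2.20 and -2.28 and were called lower too. Cdca8, encoding borealin, had -2.08 (adjusted p = 0.00246) and Incenp, encoding the scaffold that activates Aurora B, had -1.50 (adjusted p = 0.00386). Aurkb, the kinase gene of the complex, is not a member, and the probe of it used here was above background on no array.

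The fibrous corona is the outermost layer, which catches microtubules. Of its 2 genes Cenpe, which encodes a kinesin, fell, and it had levels of 1.32, 0.60, 1.24 and 1.18 in 85% O2 against 3.37, 3.32, 3.40 and 2.55 in 21% O2 (log2 difference -2.07, adjusted p = 0.00289). Cenpf, a large coiled-coil protein gene, gives only an approximate bound, 1.97-fold lower in 85% O2. Its measured means were -7.01 ± 0.82 in 85% O2, not well above background, and -4.64 ± 0.63 in 21% O2 (SD, n = 4 each). The bound replaces the Cenpf signal, wherever it was the lower, by the weakest signal that counted as above background on that array. That floor is taken over all probes and need not be the limit of the Cenpf spot, so a smaller difference is possible. The limma fit gave adjusted p = 0.0134, which supports nothing here since the probe was kept only through 21% O2. With Cenpf at its bound the median of the members was -1.41. Both remaining Cenp names did not pass: Cenpj, which works at centrioles, had -0.49 with groups that did not overlap (adjusted p = 0.0562), and Cenpv had 0.10.

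Of 13 members with more than 1 probe, those of Birc5, Cdca8, Cenpk, Cenpl, Cenpq, Incenp, Mad2l1 and Zwilch were all called lower, and a second Nuf2 probe had -0.71 without passing (adjusted p = 0.275). One array stood apart. Replicate 4 in 21% O2 was the lowest of its group for 32 of the 35 members, and replicate 2 in 85% O2 the lowest of its group for 26. Without replicate 4 in 21% O2, 26 members were called lower (3.95% of all genes) and 1 higher, with a median of -1.61.

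**Figure D3:**
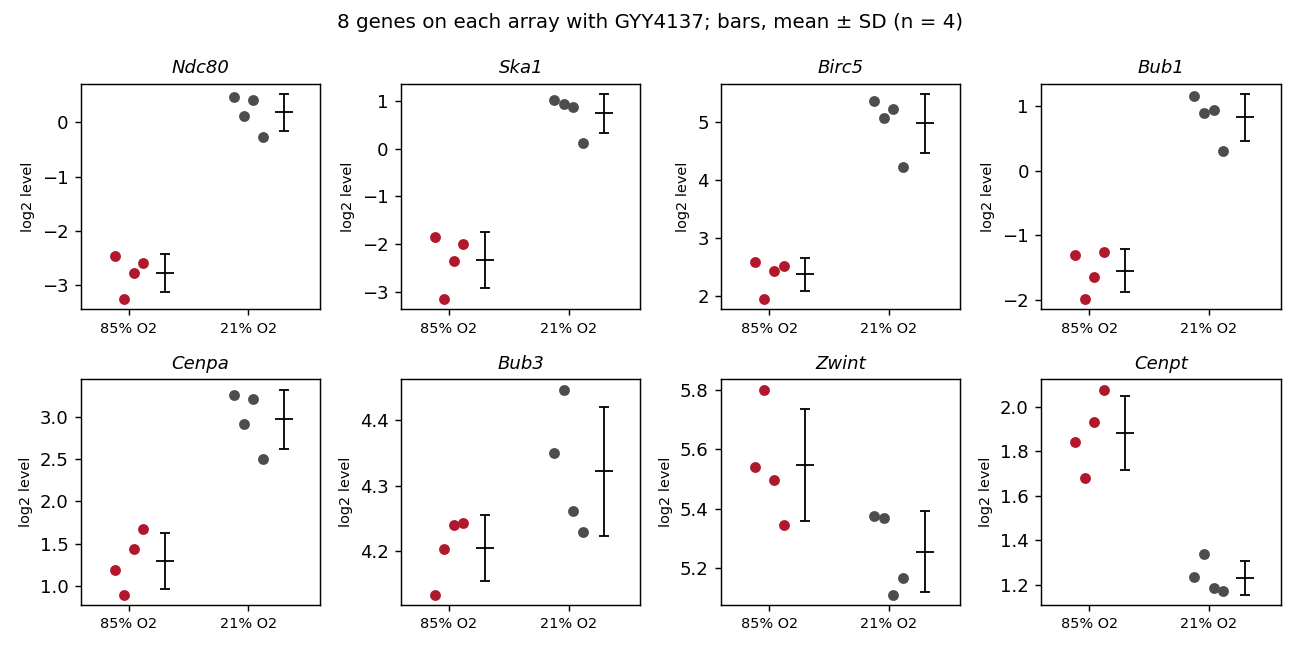
Log2 level (vertical axis, relative to the 75th percentile of the array, a separate scale for each gene) of 8 genes on each array with GYY4137, 85% O2 left of 21% O2, with the mean and SD (n = 4) beside the points. Ndc80, Ska1, Birc5, Bub1 and Cenpa are low in 85% O2 without overlap, Bub3 and Zwint overlap, and Cenpt is high in 85% O2.

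Among 26 further kinetochore and centromere genes 25 were tested, and 19 fell and 0 rose in 85% O2, with a median of -1.51. The 8 with the largest differences were Plk1 (-2.86), a mitotic kinase, Sgo2a (-2.84) and Sgo1 (-2.10), protectors of centromeric cohesion, Knl1 (-2.83), the platform for BUB proteins, Kif2c (-2.71) and Kif18a (-1.69), microtubule-depolymerising kinesins, Cdc20 (-2.02), the checkpoint's target, and Trip13 (-1.67), which remodels MAD2. Of 17 tested genes of the anaphase-promoting complex and its regulators, 4 fell and 1 rose, with a median of -0.23. Fbxo5, encoding the inhibitor EMI1, had -2.83 and Ube2c, encoding the E2 enzyme, had -1.62, while Anapc11 had -0.63, Ube2s -0.52 and the subunit gene Anapc7 0.50. Of 8 condensin genes 7 fell (median -1.44), led by Ncapg (-1.75), Ncapg2 (-1.72), Ncapd2 (-1.65) and Smc4 (-1.54). Of 11 cohesin genes 5 fell (median -0.35), with Esco2 (-1.50) and Cdca5 (-1.43), whose products set cohesion in S phase, ahead of Smc3 (-0.60), Smc1a (-0.55) and Pds5b (-0.40). Of 16 DREAM and MuvB regulators 9 fell and 2 rose (median -0.58). E2f8 (-2.24), E2f7 (-1.89), Foxm1 (-1.55) and Mybl2 (-1.47) had the largest differences. The 2 that rose were the pocket protein genes Rb1 (0.86) and Rbl2 (0.49), while the other pocket protein gene, Rbl1, fell (-1.24). Of 13 cell cycle genes taken for comparison, 12 fell, among them Mki67 (-2.88) and Ccna2 (-2.81), and Cdkn1a, encoding the p21 inhibitor, rose by 2.03 (adjusted p = 0.00146).

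Levels of cell type markers were set beside this result. Their sums, as log2, did not overlap for alveolar type II (5.11 to 5.28 in 85% O2, 5.46 to 5.92 in 21% O2, 1 of 7 called lower), basal (1.95 to 2.23 in 85% O2, 2.36 to 3.38 in 21% O2, 0 of 4 called) and ciliated markers (1.15 to 1.90 in 85% O2, 0.02 to 0.55 in 21% O2, 2 of 4 called higher). Fibroblast sums lay between 9.42 and 10.01 in 85% O2 and between 10.004 and 10.226 in 21% O2, with 1 of 8 markers, Thy1, called lower. Smooth muscle markers had 1 called higher and 1 lower of 6, endothelial markers 1 higher of 6 and neutrophil markers 1 lower of 5. Macrophage (8), lymphocyte (7), alveolar type I (6) and club markers (4) had 0 called, with overlapping sums. The part of these in the members' differences was not tested.

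The promoters of the members were searched because so many of them fell together. RefSeq windows of 300 bases (250 before to 50 after the transcription start, GRCm38.p6) were at hand for 31 of the 35 members. TTTGAA, read on both strands, was in the windows of 35.5% of these members, 10 of the 23 that fell in 85% O2 (43.5%, and 9 of 22 without Cenpf) and 1 of the 8 that did not fall, against 20.2% of 27025 genes. CCAAT was in those of 64.5%, 17 of 23 that fell (16 of 22 without Cenpf) and 3 of 8 that did not, against 41.1% of all genes. GGCGGGAA was in 16.1%, 3 of 23 that fell and 2 of 8 that did not, against 2.5%, and TTTAAA in 25.8%, 5 of 23 and 3 of 8, against 14.9%. A gene with several windows was counted once. These are counts of letters and not of bound sites. The 4 windows below belong to the members with the smallest p among those that hold TTTGAA. They are printed 5′ to 3′ on the strand of the gene, with TTTGAA and CCAAT or their reverse complements (TTCAAA and ATTGG) in capitals.
Ndc80: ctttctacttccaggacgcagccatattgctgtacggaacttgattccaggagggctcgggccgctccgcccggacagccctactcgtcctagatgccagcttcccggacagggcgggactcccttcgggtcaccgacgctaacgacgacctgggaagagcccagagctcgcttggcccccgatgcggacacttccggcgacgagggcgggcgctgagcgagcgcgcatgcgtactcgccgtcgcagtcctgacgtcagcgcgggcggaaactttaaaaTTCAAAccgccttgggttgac
Cdca8: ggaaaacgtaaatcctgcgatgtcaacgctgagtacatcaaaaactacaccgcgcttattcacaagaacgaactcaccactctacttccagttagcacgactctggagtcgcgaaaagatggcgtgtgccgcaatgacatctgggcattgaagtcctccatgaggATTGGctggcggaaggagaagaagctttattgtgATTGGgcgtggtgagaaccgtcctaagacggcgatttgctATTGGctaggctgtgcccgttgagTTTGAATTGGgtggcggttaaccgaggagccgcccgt
Bub1b: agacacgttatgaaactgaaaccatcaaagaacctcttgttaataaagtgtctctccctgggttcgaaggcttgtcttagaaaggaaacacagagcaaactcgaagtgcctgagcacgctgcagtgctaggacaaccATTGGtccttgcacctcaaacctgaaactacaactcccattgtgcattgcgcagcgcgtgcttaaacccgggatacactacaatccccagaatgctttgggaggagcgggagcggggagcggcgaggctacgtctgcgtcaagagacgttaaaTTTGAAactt
Cenpn: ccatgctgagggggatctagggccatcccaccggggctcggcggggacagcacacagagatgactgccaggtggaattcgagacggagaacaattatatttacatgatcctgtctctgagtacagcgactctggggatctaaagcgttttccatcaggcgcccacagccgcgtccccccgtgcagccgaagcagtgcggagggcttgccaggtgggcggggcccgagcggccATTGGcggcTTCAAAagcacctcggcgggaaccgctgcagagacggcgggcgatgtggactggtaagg
The Ndc80 window is chr17:71526808-71527107 on the minus strand, with its TTTGAA (as TTCAAA) beginning 30 bases into the transcript and no CCAAT. In Cdca8 (chr4:124936868-124937167, minus strand) TTTGAA begins at base 14 of the transcript and shares 1 base with the last of 4 reversed CCAAT boxes. In Bub1b (chr2:118597961-118598260, plus strand) it begins at base 41, and the reversed CCAAT box begins at -113. In Cenpn (chr8:116921490-116921789, plus strand) both lie just before the start, at -9 and -18. In 85% O2 these 4 genes had log2 differences of -2.95, -2.08, -2.02 and -1.67.

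Time in culture gave smaller differences. In vehicle, 4 of the 35 members fell at 24 h against 6 h and 0 rose at an adjusted p under 0.05 (limma, 33235 genes and unnamed probes, of which 0.226% were called lower, 0.388% higher and 0.614% in all). The median of the members was -0.55 and that of all genes 0.02. Differences were negative for 31 of 35 members, against 47.9% of all genes, and on 23 members every array at 24 h lay below every array at 6 h, against 2.88% of all genes. On 0 members every array at 24 h lay above, against 3.89% of all genes. At an unadjusted p under 0.05 there were 27 members, against 10.8% of all genes. With slide as a block 14 members fell (0.921% of all genes called lower), and with the replicate number as a block 19 fell (1.12%), against 2.13% of all genes called in either direction with the slide and 2.67% with the number. The differences themselves are the same in these balanced fits. Within slide 1 the median was -0.49 and within slide 2 it was -0.58, with 0 members called in either and 2 arrays per group.

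The 4 called members came from 3 roles. Birc5 had levels of 4.29, 4.27, 4.70 and 4.53 at 24 h against 5.32, 5.01, 5.19 and 5.50 at 6 h in vehicle (1.75-fold lower, log2 difference -0.81, interval -1.15 to -0.46, adjusted p = 0.0442). Bub1b had 0.24, 0.01, 0.40 and 0.27 at 24 h against 1.16, 0.64, 0.91 and 1.22 at 6 h (log2 difference -0.75, adjusted p = 0.0429). Mad2l1 had 2.38, 2.36, 2.60 and 2.44 at 24 h against 3.32, 3.03, 3.07 and 3.29 at 6 h (log2 difference -0.73, adjusted p = 0.0291). None of these groups overlapped. Cenpm, with the narrowest spread of the 4, had -1.67, -1.85, -1.58 and -1.62 at 24 h against -1.16, -1.04, -1.11 and -1.10 at 6 h, again with no overlap (1.49-fold lower, log2 difference -0.58, interval -0.78 to -0.38, adjusted p = 0.0228). Ska3, outside the rule, was also called lower (log2 difference -0.88, adjusted p = 0.0351), and Ska2 had -0.60 without passing (adjusted p = 0.128). In a limma fit of 40104 probes the other Birc5 probes had -0.85 and -0.81 without passing (adjusted p = 0.0531 and 0.077). The other Mad2l1 probes had -0.61 and -0.64, also without passing (0.0822 and 0.173). Probes not used here for Cdca8 (-0.80, adjusted p = 0.0419) and Cenpq (-0.72, 0.0152) were called lower, while those used did not pass.

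The 31 other members did not pass in the fit without a block. The outer kinetochore ran from -0.80 (Nuf2) to -0.27 (Mis12) with 0 of 7 called, the inner kinetochore from -0.76 (Cenpl) to 0.10 (Cenpc1) with 1 of 12, and the checkpoint from -0.88 (Ttk) to 0.02 (Zwint) with 2 of 7. The replicate numbers were read as pairing these arrays, although same-numbered arrays also share a slide and the labels do not state a pairing. With the numbers as a block 4 of 7 outer kinetochore members fell: Ndc80 (adjusted p = 0.0424), Nuf2 (0.0276), Ska1 (0.0304) and Spc25 (0.0482). In the same limma fit 5 of 7 checkpoint members fell (Bub1, Bub1b, Mad2l1, Ttk and Zwilch), as did 6 of 12 of the inner kinetochore (Cenph, Cenpi, Cenpk, Cenpl, Cenpm and Cenpw), all 3 chromosomal passenger genes, and Cenpe. Without a block the calls rested on single arrays, for the members and over all genes, whose share called is given in brackets. Without replicate 2 of vehicle at 6 h 12 members were called (0.969%). Without replicate 1 or 3 of vehicle at 6 h 0 were called (0.0271% and 0.162%). The same held without replicate 1, 2 or 4 of vehicle at 24 h (0.0181% to 0.0933%). Without replicate 4 of vehicle at 6 h 1 was called (0.223%), and without replicate 3 of vehicle at 24 h 2 (0.208%). The NaHS arrays enter through the shared spread. Without replicate 3 of NaHS at 24 h 7 members were called (0.656%), and without replicate 2 of it 5 (0.554%). Without replicate 1 of it or replicate 2 of NaHS at 6 h 1 was called (0.238% each), and without any other NaHS array 2 (0.277% to 0.397%). The median stayed between -0.61 and -0.47 throughout. Of the further kinetochore genes 3 of 25 fell in vehicle, Knl1 (-0.87), Cenps (-0.86), a DNA-binding CENP, and Oip5 (-0.69), which helps load CENP-A. In the anaphase-promoting complex, cohesin, condensin and DREAM lists 0 were called, with medians of -0.07, -0.19, -0.50 and -0.25. Of the cell cycle genes Mcm5 fell (-0.88) and Cdkn1a rose (0.75).

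Marker levels moved with time too. Summed club cell markers lay between 1.28 and 4.28 at 24 h and between 4.64 and 7.61 at 6 h in vehicle, with 1 of 5, Scgb3a1, called lower. Smooth muscle sums lay between 10.24 and 10.41 at 24 h and between 9.36 and 10.22 at 6 h, with 1 of 6, Notch3, called higher. Fibroblast sums overlapped, with 1 of 8, Thy1, called higher. Type II sums lay between 5.47 and 5.76 at 24 h and between 5.75 and 6.33 at 6 h, with 1 of 7, Sftpa1, called lower. Of the type I, macrophage, lymphocyte, neutrophil, endothelial, ciliated and basal markers 0 were called. Their part in the members' differences was not tested, and the 24 h arrays sat in the second row of each slide and the 6 h arrays in the first, so time and row cannot be told apart.

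In NaHS the same interval gave a median of -0.25. By limma 0 of 35 members were called (0.0271% of all genes, 0.00602% lower and 0.0211% higher). At an unadjusted p under 0.05 there were 8 members (7.29% of all genes), and 29 of 35 were negative, against 51.9% of all genes. The smallest p belonged to Mad2l1, with 2.57, 2.46, 2.97 and 2.41 at 24 h against 3.036, 3.095, 2.862 and 3.131 at 6 h in NaHS. Its groups overlapped through replicate 3 of both times (difference -0.43, adjusted p = 0.343). Cenph had -0.49 without overlap (adjusted p = 0.414) and Bub1b -0.42 with overlap (adjusted p = 0.488). On 2 members, Cdca8 and Cenph, every array at 24 h lay below (2.16% of all genes), and on 0 above (3.6%). With the slide as a block 0 members were called (0.0993% of all genes, 0.0181% lower), and with the replicate number 0 (0.105% and 0.0331%). The slides differed: the median was -0.04 within slide 1 and -0.47 within slide 2. Of the cell type markers 1 was called between these groups, the macrophage gene C1qa, higher at 24 h (log2 difference 2.26, adjusted p = 0.0312, 1 of 8 on its list). Summed endothelial markers lay apart, at 3.35 to 3.53 at 24 h and 3.55 to 3.76 at 6 h in NaHS. Yet 5 of these 7 markers had a positive difference (median 0.34), against the direction of the sum. The part of the cell type markers in the members' differences was not tested.

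**Figure D4:**
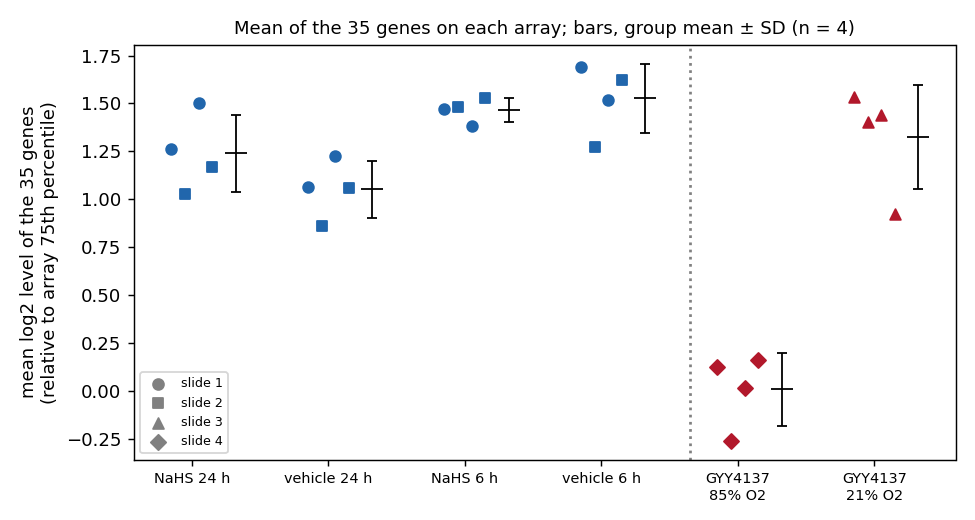
Mean log2 level of the 35 genes (vertical axis, relative to the 75th percentile of each array) on each of the 24 arrays, by group, with marker shape for the slide and the group mean with its SD (n = 4) beside the points. The means lie between -0.26 and 0.16 in 85% O2 and between 0.93 and 1.54 in 21% O2, and the NaHS and vehicle groups overlap at 24 h and at 6 h.

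NaHS itself was set against vehicle at each time. On both slides the vehicle arrays sat in columns 1 and 2 and the NaHS arrays in columns 3 and 4. NaHS and column therefore cannot be told apart. At 24 h 0 of 35 members were called by limma (0.0% of all genes) and 4 had an unadjusted p under 0.05 (2.21% of all genes). The median was 0.21, with 31 of 35 members positive, against 49.8% of all genes. The mean over members was 1.24 ± 0.20 in NaHS and 1.05 ± 0.15 in vehicle (SD over 4 arrays each), with overlapping arrays. Within slide 1 the median was 0.27 and within slide 2 it was 0.12. Of the cell type markers 0 were called. Summed endothelial markers lay apart, at 3.35 to 3.53 in NaHS and 3.61 to 3.94 in vehicle. Yet 5 of these 7 markers had a positive difference (median 0.36), so most did not share the direction of the sum. Differences were positive for 0 of 6 smooth muscle and 0 of 4 basal markers and for 5 of 5 club and 5 of 5 ciliated markers, with sums that overlapped between NaHS and vehicle. The part of these markers in the members' differences was not tested. Cenpm was the one member whose groups did not overlap (0.933% of all genes lay apart and higher): it had -1.46, -1.43, -1.26 and -1.36 in NaHS against -1.67, -1.85, -1.58 and -1.62 in vehicle (difference 0.30, interval 0.10 to 0.51, limma adjusted p = 1.0). Cenpp and Cenpw followed with 0.28 and 0.25, their groups overlapping, also at an adjusted p of 1.0. Leaving out the dim Cenpf, the 95% intervals of the members ran from -0.35 to 0.92, so that a difference of up to 0.92 on the log2 scale lay within them.

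At 6 h 0 of 35 members were called (0.0% of all genes) and 1 had an unadjusted p under 0.05 (0.59% of all genes). The median was -0.07, with 28 of 35 negative, against 49.3% of all genes. It was -0.18 within slide 1 and 0.03 within slide 2, so the direction was not the same on both. Of the cell type markers 0 were called. Differences were positive for 6 of 6 type I, 0 of 5 club and 0 of 5 ciliated markers, with sums that overlapped. Their part in the members' differences was not tested. Cenpm again had the smallest p, now lower in NaHS: -1.39, -1.21, -1.45 and -1.17 in NaHS against -1.16, -1.04, -1.11 and -1.10 in vehicle, with no overlap (difference -0.20, interval -0.404 to -0.002, limma adjusted p = 1.0, and 0.277% of all genes lay apart and lower). Dsn1 had -0.19 without passing. Cenpf, which 3 of the 4 arrays with NaHS but 1 of the 4 with vehicle showed above background, had means of -4.65 ± 0.28 in NaHS and -5.25 ± 0.97 in vehicle (SD, n = 4 each), so its difference, which did not pass, rests mostly on signals at background in vehicle.

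The difference of the NaHS effect between 24 h and 6 h was tested directly. Of the members 0 were called (0.0% of all genes) and 2 had an unadjusted p under 0.05 (1.07% of all genes), with a median of 0.28 and 34 of 35 positive, against 48.4% of all genes. The members share their arrays and are not independent of each other. Cenpm had 0.51 (interval 0.22 to 0.79, limma adjusted p = 1.0), Cenpp 0.43 and Nuf2 0.46. The median was 0.44 within slide 1 and 0.10 within slide 2. These comparisons share their vehicle and NaHS arrays with the time comparisons above.

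The oxygen and the vehicle time comparisons rest on separate experiments that share no array. Set side by side, the 26 members that fell in 85% O2, leaving out the dim Cenpf, had vehicle time differences of -0.88 to -0.27 with a median of -0.68. The 8 members that did not fall in 85% O2 (Bub3, Cenpb, Cenpc1, Cenpj, Cenpo, Cenpt, Cenpv and Zwint) had -0.31 to 0.10 with a median of -0.10. Across the 35 genes, which are not independent replicates, Pearson's r was 0.66 and Spearman's rho 0.77, and without Cenpf 0.89 and 0.89 over 34. The points share probes, and every time difference shares the 8 vehicle arrays.

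**Figure D5:**
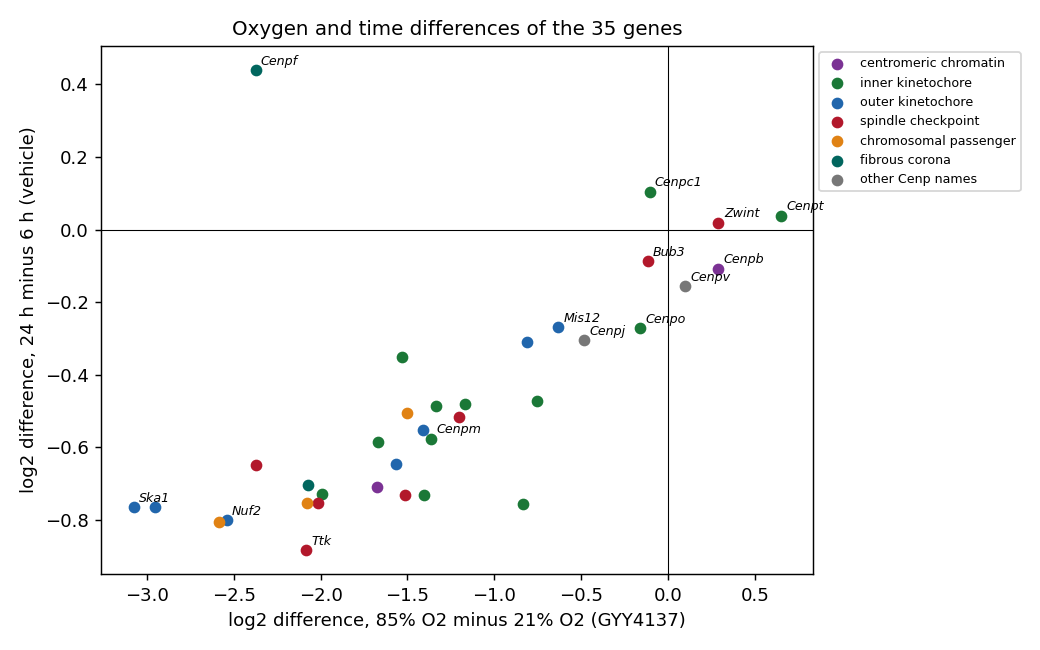
Log2 difference of each of the 35 genes for 85% O2 minus 21% O2 with GYY4137 (horizontal axis) and for 24 h minus 6 h in vehicle (vertical axis), coloured by role. Genes with the largest oxygen differences, such as Ska1 and Nuf2, lie among the lowest, Cenpt, Zwint, Bub3 and Cenpc1 lie near 0 on the time axis, and Cenpf, above background on 0 of 4 arrays in 85% O2 and on 1 of 4 vehicle arrays at 6 h, lies apart at a fitted 0.44.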

How the data were processed

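Total RNA of 24 samples (6 groups of 4) was measured on 1-colour Agilent arrays. The scanner software, Feature Extraction 10.7.3.1 per the file headers and the submitters' processing notes, gave each spot an intensity from which it had removed background and spatial trends; per the file headers it did not normalize arrays against each other. A deposited table has the authors' own log2 values. Its steps are not stated, but its columns correlate at 0.998 to 1.0 with the log2 signals of the same arrays, with equal medians over the 16 NaHS and vehicle arrays (5.95) and over the 8 GYY4137 arrays (7.08), so it runs in the same direction and is centred within each experiment.

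Here flagged spots were dropped, the 75th percentile of each array was subtracted from log2 signals, and the brightest probe stood for a gene. Probes above background on at least 4 arrays of an experiment were kept. Each experiment was fitted on its own (limma 3.58.1 in R 4.3.3, a mean for each group), with Benjamini-Hochberg adjustment over all genes at 0.05. The fit was also run on simulated data whose noise was independent between genes and held no slide effect. That run therefore does not speak for the calls here. The R package data.table (version 1.17.8) and Python with pandas read the files. The 95% intervals come from the same fit and are not adjusted. The depth of an array has no count, so the number of arrays limits the precision.

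Same-numbered arrays were checked for pairing by the correlation of their deviations from the group means. It ran from 0.381 to 0.769 in the NaHS experiment and from 0.176 to 0.334 in the GYY4137 experiment. All were above 0.1, so the numbers were read as pairing the arrays. Those of the NaHS experiment also share a slide (arrays of one slide with other numbers, 0.105 to 0.678). In the GYY4137 experiment arrays with other numbers correlated at -0.273 to 0.291, which overlaps, and same-numbered arrays share a slide column. These values therefore cannot show a pairing by culture or animal. No 2 replicates held identical values (r 0.969 to 0.996).

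The members and gene lists were chosen with earlier results of these data known. All members past the threshold are named, and otherwise the 3 with the smallest p. The other lists are further kinetochore genes, anaphase-promoting complex, cohesin, condensin, DREAM and MuvB regulators, cell cycle genes, and markers of alveolar type II and I, macrophage, lymphocyte, neutrophil, fibroblast, smooth muscle, endothelial, club, ciliated and basal cells. Alternatives were blocks for slide or replicate number, single slides, other normalizations, background corrections, filters and probe rules, the deposited table, only the compared groups, and leaving out each array.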

Additional observations from a re-analysis of the deposited data

Results flagged for a closer look

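In 14 of 210 sets of 4 arrays (35 genes in 6 groups), 1 array lay far from the other 3, by Dixon's test of its gap to the nearest of them. Chance flags about 1 in 20 such sets. Replicate 4 in 21% O2 was low for 6 genes: Cdca8 at 2.72 (the others 3.55 to 3.66), Cenpe at 2.55 (3.32 to 3.40), Cenpk at 0.68 (1.25 to 1.28), Mad2l1 at 2.24 (2.93 to 2.98), Ska1 at 0.12 (0.873 to 1.012) and Ttk at -2.80 (-2.02 to -1.94). Replicate 2 in 85% O2 was low for Cenpj at -0.071 (0.22 to 0.27) and Mad2l1 at 0.93 (1.35 to 1.40). Replicate 2 of vehicle at 24 h was low for Cenpl at -0.62 (-0.09 to -0.02) and Mis12 at -0.17 (0.03 to 0.04). Replicate 2 of NaHS at 24 h was low for Cenpa at 2.61 (2.74 to 2.76). In NaHS at 6 h, replicate 2 was low for Bub3 at 4.47 (4.60 to 4.63) and high for Cenpn at -0.23 (-0.43 to -0.41), and replicate 4 was high for Ttk at -1.72 (-1.94 to -1.91). The part of these arrays in the group differences is given beside the oxygen and time results above.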

How the results depend on the processing

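The oxygen result kept its direction and count in every setting run: 27 to 29 members were called (24 to 27 when an array was left out), with a median of -1.56 to -1.41, except -1.19 after normexp background correction, and -1.61 to -1.34 with an array left out. Over all genes, calls ran from 4092 of 46573 (no filter) to 5999 of 34623 (normexp), and from 5.98% to 19.5% with an array left out. Of the named members only Cenpl, Cenpw, Dsn1 and Mis12 lost the threshold anywhere. Members called for 24 h against 6 h in vehicle were 4, against 14 with slide as a block, 19 with the replicate block, 13 with normexp, 16 with probes above background on every array, 2 with the deposited table or the mean of all probes, and 0 with median centring, no filter, only the compared groups, or within slide 1 or slide 2; leaving out an array gave 0 to 12, with medians of -0.61 to -0.47. All genes called there numbered 204, against 708, 889, 510, 594, 121 with the mean of probes, 1 with median centring, 52 with no filter and 0 with only the compared groups. With an array left out they numbered 6 to 322. For NaHS the time calls over all genes were 9, against 33 and 35 with the blocks, 30 with normexp, 59 with the stricter filter and 0 to 2 with other scalings, no filter or only the compared groups. Medians moved within slides: -0.181 on slide 1 and 0.027 on slide 2 for NaHS at 6 h (-0.07 in all, -0.169 to -0.017 with an array left out), and -0.041 and -0.472 for time in NaHS (-0.25 in all, -0.35 to -0.19). For NaHS at 24 h the median ran from 0.11 to 0.27 and for the difference of effects from 0.18 to 0.35 with an array left out, with 0 members called in these 3 NaHS results throughout. Cenpf in NaHS at 6 h, mostly at background in vehicle, reversed to -0.043 with normexp. The replicate block changed the call of 1 member in the oxygen comparison, Cenpl, and otherwise the vehicle time calls only. The causes were not tested. Limits are 4 arrays per group and no donor-free arrays beside GYY4137. Slide and oxygen, slide row and time, and slide column and NaHS cannot be told apart.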
